A study of Mus musculus with 6 samples.

Results

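The Gnas imprinted cluster of the mouse was examined as the interval from 174.27 to 174.36 Mb of chromosome 2 (GRCm38), which covers Nesp, the antisense transcript Nespas (Gnasas1), Gnasxl, exon 1A and Gnas. The members are the single positions that the deposited tables list there, and 68 of the 448072 positions listed in any table fall in the interval. Reduced representation bisulfite sequencing, an assay of cytosine methylation that favours CpG-rich stretches, was applied to genomic DNA of 6 cultured lines, all of the OG2 strain, in which an Oct4 promoter drives GFP. Induced pluripotent stem cells made from germline stem cells (iPSC) were represented by lines 1 and 2, and so were pluripotent cells derived from the germline (gPSC). Germline stem cells (GSC), which grow in culture from spermatogonia, and embryonic stem cells (ESC) were represented by 1 line each. No sex, passage or age is given for any line in the sources used here. The iPSC, gPSC and GSC libraries have 2 tables each, of positions with higher (hyper) or lower (hypo) methylation than in another library. The tables leave that library unnamed, and ESC, the only sample without tables, is assumed here and called the reference. Every value below is the authors' deposited difference, library minus reference, in percentage points, of positions they listed with a q of at most 0.01 and a difference of at least 25 points. Neither coverage nor level is given, so the depth behind a value is unknown, and a position missing from a table may not have been measured.

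Imprinted genes are expressed according to the parent that transmitted them, and methylation set in the egg or the sperm marks the parental copies. Gnas encodes Gsα, the G protein subunit that couples hormone receptors to adenylyl cyclase. Alternative first exons of the same gene give Nesp, a neuroendocrine secretory protein expressed from the maternal copy, Gnasxl, the extra-large form of Gsα expressed from the paternal copy, and the untranslated exon 1A transcript, also paternal. Nespas runs antisense to Nesp from the paternal copy. In the textbook account, the region of the Nespas and Gnasxl promoters and the exon 1A region are methylated in the egg, the Nesp promoter gains methylation on the paternal copy later, and the Gsα promoter itself stays unmethylated.

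The RefSeq gene table places Gnasas1 at 174281237 to 174295436 and Gnas at 174284320 to 174346744 of chromosome 2, and the long non-coding gene Gm30189 at 174320906 to 174327387. RefSeq promoter windows (GRCm38.p6, plus strand, 250 bases before to 50 bases after a start) exist for 4 starts of Gnas. In textbook order they are Nesp (start 174284320), exon 1A (174327749 and 174327768) and Gsα exon 1 (174330006). The Nesp window, chr2:174284070-174284369, is shown because it alone holds listed positions, and its capitals mark the 5 listed CpGs, all listed in GSC and in no other library. The exon 1A window, chr2:174327518-174327817, and the Gsα window, chr2:174329756-174330055, are shown as the CpG-dense starts next to which listed positions lie without falling inside, and their capitals mark every CpG.
Nesp: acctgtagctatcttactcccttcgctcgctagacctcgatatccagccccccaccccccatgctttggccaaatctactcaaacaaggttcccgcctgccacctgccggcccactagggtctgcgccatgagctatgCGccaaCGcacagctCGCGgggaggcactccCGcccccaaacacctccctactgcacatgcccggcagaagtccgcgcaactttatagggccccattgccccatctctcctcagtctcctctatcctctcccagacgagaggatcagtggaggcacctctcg
Exon 1A: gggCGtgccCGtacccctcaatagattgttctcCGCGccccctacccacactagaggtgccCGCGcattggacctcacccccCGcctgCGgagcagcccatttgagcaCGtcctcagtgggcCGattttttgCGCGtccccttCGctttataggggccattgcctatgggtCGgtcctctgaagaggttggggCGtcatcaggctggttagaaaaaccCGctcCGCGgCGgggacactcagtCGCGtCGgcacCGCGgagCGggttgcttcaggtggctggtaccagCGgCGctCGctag
Gsα: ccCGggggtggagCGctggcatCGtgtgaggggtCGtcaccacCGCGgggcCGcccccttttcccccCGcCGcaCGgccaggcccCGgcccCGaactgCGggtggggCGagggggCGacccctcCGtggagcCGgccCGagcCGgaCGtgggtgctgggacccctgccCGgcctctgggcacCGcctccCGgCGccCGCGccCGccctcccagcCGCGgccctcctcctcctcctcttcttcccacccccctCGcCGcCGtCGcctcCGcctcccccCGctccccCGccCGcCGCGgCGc
The windows hold 16, 28 and 40 CpGs, where the median over 32851 RefSeq promoter windows is 7. At least as many CpGs as in the Gsα window are found in 3.91% of those windows, against 14.2% for exon 1A and 33.0% for Nesp.

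Hypo listings took a larger share of the Gnas interval than of the whole series in every library except gPSC 2, where the shares were close. In iPSC 1, 11 of 25 listed positions were hypo (44.0%), against 17.6% of its listed positions over the series. In iPSC 2, 22 of 38 were hypo (57.9%), against 21.8% over the series. In gPSC 1, 14 of 32 were hypo (43.8%), against 18.0%. In gPSC 2, 2 of 15 were hypo (13.3%), against 12.8%, and in GSC 14 of 29 (48.3%), against 17.1%. Neighbouring positions share reads and the libraries share the reference, so these shares have no test. The shares count both strands of CpGs with opposite signs, described below, and were lower without positions within 50 bp of an opposite one in every library except iPSC 2. Hypo listings were then 2 of 8 in iPSC 1 (25%, against 10.1% over the series treated likewise) and 9 of 12 in iPSC 2 (75.0%, against 15.4%). They were 2 of 10 in gPSC 1 (20.0%, against 9.44%), 1 of 13 in gPSC 2 (7.69%, against 6.39%) and 4 of 12 in GSC (33.3%, against 10.3%).

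**Figure D1:**
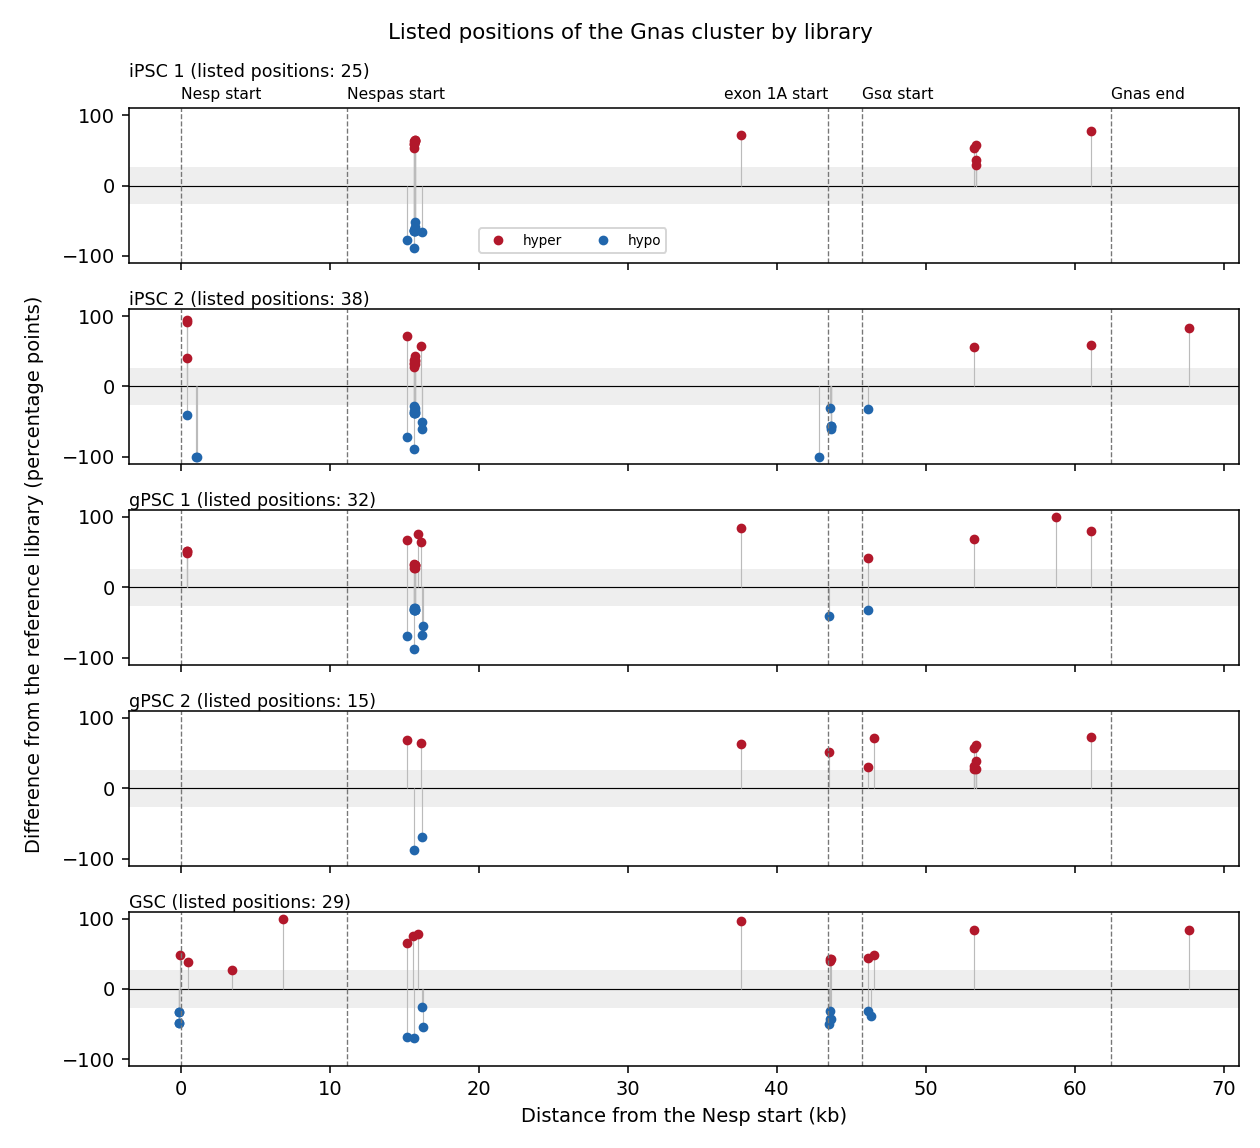
Deposited difference from the reference library (percentage points) against distance from the Nesp start (kb) for each library, with 1 point for each listed position; dashed lines mark annotated starts and the end of Gnas, and the grey band the range below 25 points that is not listed. Hyper and hypo points stand over each other near Nesp, between the Nespas and exon 1A starts and around exon 1A and Gsα, while the points downstream of 50 kb are hyper in every library.

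Of the 68 positions, 36 were hyper and 32 hypo, and 0 were listed in opposite directions by different libraries. In all, 32 positions were listed in 1 library, 11 in 2, 18 in 3, 4 in 4 and 3 in all 5 libraries. The libraries share the reference, and a large difference in 1 library leaves no room for an opposite listing in another. The matching numbers over the series are not given here, so none of these counts can be called a trait of the interval. With gaps of at most 1000 bp, 62 positions formed 5 clusters and 6 stood alone. The clusters are called here Nesp (12 positions, 174284208 to 174285373), Gnasxl-side (25 positions, 174299492 to 174300568, the nearest 4056 bp upstream of the Nespas start in the direction of Nespas), exon 1A (14 positions, 174327122 to 174327988), Gsα exon 1 (5 positions, 174330407 to 174330845) and Gnas body (6 positions, 174337544 to 174337711). No position was listed at the Nespas start itself.

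Of the 68 positions, 34 were taken as the strands of 17 CpGs with each cytosine listed in some library. Most of these CpGs were hypo on 1 strand and hyper on the other. Over the series, 99.9% of 48110 listings inside RefSeq promoter windows fell on a C or G of a CpG, 49.6% of them on the C, which is the cytosine of the plus strand, and the rest on the G, which is that of the minus strand. The tables mark every position as plus strand, yet both strands are thus listed. Positions 1 bp apart were taken as the plus- and minus-strand cytosines of a CpG, called its first and second cytosine below. The letters of each pair were not checked. In the sequence CGCG the G of 1 CpG and the C of the next are also 1 bp apart. Where both were listed, such neighbours were counted as pairs too, and how many is not known. In the Gnas interval both cytosines of a CpG were listed in the same library 37 times, at 16 CpGs, and in 35 of the 37 the directions were opposite. The counts were 8 of 9 in iPSC 1, against 83.7% of such pairs over the series, and 11 of 11 in iPSC 2, against 87.0%. They were 10 of 10 in gPSC 1, against 86.7%, 1 of 2 in gPSC 2, against 79.3%, and 5 of 5 in GSC, against 63.3%. The values of the strands nearly cancelled, with sums no further than 10 points from 0 in 30 of the 35 opposite pairs and no further than 5 points in 18.

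**Figure D2:**
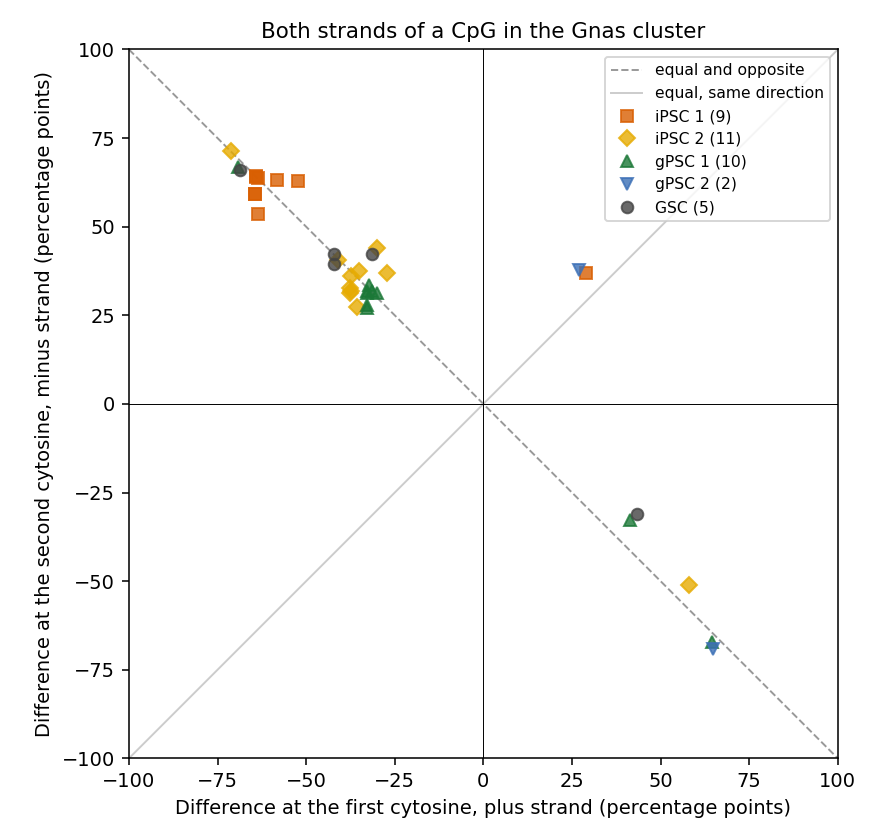
Difference from the reference (percentage points) at the second cytosine of a CpG against that at the first, 1 point for each CpG and library with both listed, with the number for each library in the legend. The 35 opposite points lie along the dashed line of equal and opposite values, and the 2 points of the same direction are the Gnas body CpG in iPSC 1 and gPSC 2.

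At such a CpG the sign of a single listing depends on the strand, so neither gain nor loss of methylation can be read from it. In 55 of the 139 listings no opposite position lay within 50 bp in the same library, and of these 37 were hyper and 18 hypo. They comprise all 13 listings of the Gnas body cluster and all 13 at isolated positions, which were hyper throughout. In the other clusters 9 were left at exon 1A, 9 at Gnasxl-side, 6 at Nesp and 5 at Gsα exon 1.

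At Nesp, the promoter of the maternally expressed secretory protein, 3 libraries had listed positions, and iPSC 1 and gPSC 2 had none. Just inside the transcript, position 174284728 (0.41 kb after the start) was higher by 94.8 points in iPSC 2, with an authors' q of 1.73e-13, and by 51.9 points in gPSC 1. Position 174284739 was higher by 91.3 points in iPSC 2 and by 48.4 points in gPSC 1. The deposited feature column puts both in an exon and a promoter. A difference between libraries at a position does not depend on their shared reference, and iPSC 2 stood 42.9 points above gPSC 1 at both. For iPSC 2 to differ by 94.8 points, the reference can have had no more than 5.22% methylation at the first of these positions. The neighbouring CpG was listed on both strands in iPSC 2, with −41.0 points at 174284704 and 40.5 points at 174284705, and in gPSC 1 at 174284705 alone, with 51.5 points. Further into the exon, 174285343 and 174285373 were listed in iPSC 2 alone, each at −100 points, which leaves no methylated read in iPSC 2 and none unmethylated in the reference. In GSC the capitals of the Nesp sequence split by strand. The C of the first 4 marked CpGs before the start had −48, −32, −48 and −32 points, and the G of the last, 80 bp before the start, had 48 points. GSC had 1 more position, 174284764, at 38.1 points.

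The Gnasxl-side cluster was listed in all 5 libraries, and it held 29 of the 35 opposite pairs of the interval. The deposited feature column gives its positions as exon, intron and promoter of different transcripts. Position 174299947, whose partner was not listed, was hypo in every library. Only in gPSC 2 was no opposite position listed within 50 bp of it. In iPSC 1, iPSC 2, gPSC 1 and GSC there was one, and the sign on its unlisted strand is not known. The difference was −88.2 points in each of the 4 lines (iPSC 1, iPSC 2, gPSC 1, gPSC 2) and −69.2 points in GSC. The lines thus had the same level, between 0 and 11.8%, near the floor, where they can differ little. The reference level was at least 88.2%. In gPSC 2 the authors' q was 0.00574. Each line stood below GSC, with a line minus GSC difference of −19.0 points.

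At the first CpG of the cluster, the first cytosine (174299492) had −77.1 points in iPSC 1, −71.3 points in iPSC 2, −69.3 points in gPSC 1, and −68.5 points in GSC. Its second cytosine (174299493) had 71.4 points in iPSC 2, 66.9 in gPSC 1, 67.9 in gPSC 2 and 65.9 in GSC. The libraries that list both strands have values of nearly the same size with opposite signs. At the last CpG listed on both strands the signs were turned round. The first cytosine (174300469) had 57.9 points in iPSC 2, 64.6 in gPSC 1 and 64.7 in gPSC 2, and the second (174300470) had −66.7 points (iPSC 1), −51.2 points (iPSC 2), −67.2 points (gPSC 1), −69.1 points (gPSC 2) and −25.5 points (GSC). The first cytosine was not listed in iPSC 1 or GSC. Around these CpGs stood positions without a listed partner. Position 174299924 had 75.3 points in GSC, 174300257 had 75.0 in gPSC 1 and 77.8 in GSC, 174300499 had −60.7 in iPSC 2, and 174300568 had −54.7 in gPSC 1 and in GSC.

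Between them lies a run of 8 CpGs within 82 bp, from 174299957 to 174300038, listed in iPSC 1, iPSC 2 and gPSC 1 and in neither gPSC 2 nor GSC. In iPSC 1 the 8 first cytosines lay between −64.3 and −52.4 points and the 8 second cytosines between 53.7 and 64.4 points. In iPSC 2 they lay between −37.6 and −27.2 points and between 27.4 and 43.9 points. In gPSC 1 the first cytosines lay between −32.9 and −29.6 points and the 7 second cytosines listed between 27.1 and 33.6 points. The sizes in iPSC 1 did not overlap those in iPSC 2 or gPSC 1 on either strand, while iPSC 2 and gPSC 1 overlapped. The level difference iPSC 1 minus gPSC 1 was −34.1 to −19.6 points at the first cytosines and 27.3 to 37.3 points at the second. The 8 CpGs share reads and are not replicates.

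**Figure D3:**
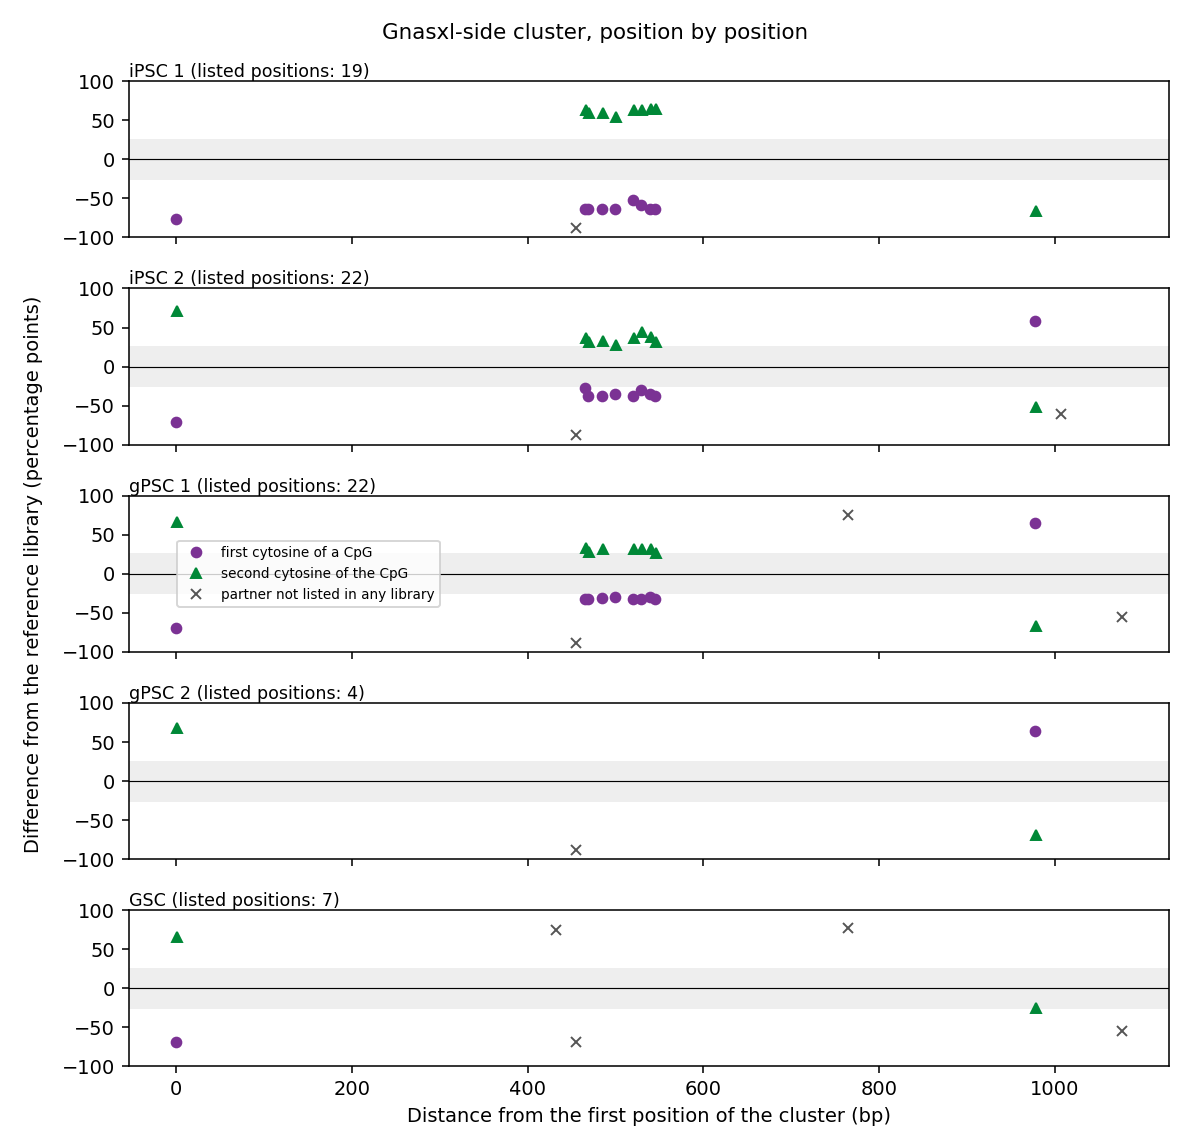
Difference from the reference (percentage points) against distance from the first position of the Gnasxl-side cluster (bp), with circles for first and triangles for second cytosines of CpGs that have both listed in some library, crosses for positions whose partner is not listed, and a grey band for differences under 25 points. The run of 8 CpGs forms 2 mirrored rows, near 60 points from 0 in iPSC 1 and near 30 to 40 in iPSC 2 and gPSC 1, and has no points in gPSC 2 and GSC.

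Because a level lies between 0 and 100%, a listed difference bounds the reference level, and the bounds of the 2 strands can be compared. Each cytosine was listed in some library, not always the same, at 17 CpGs of the interval. At 11 of them the reference bounds of the strands did not overlap. These were all 10 of the Gnasxl-side CpGs and 1 of 4 at exon 1A. The cytosines of the latter were listed in different libraries, and its gap was 1.07 points. At the first Gnasxl-side CpG the reference had at least 77.1% methylation at the first cytosine and at most 28.6% at the second, a gap of at least 48.5 points. In iPSC 2 the levels were at most 28.7% and at least 71.4% at the same cytosines, an order that follows from the size and the opposite signs of its differences. In the run of 8 CpGs the gap in the reference was at least 15.2 to 28.5 points. Non-overlapping reference bounds were found at 64.7% of the pairs of the interval with both positions listed, against 20.2% of 67622 such pairs over the series. The 8 CpGs of the run share reads and are among the 11 of the interval, so these shares have no test. The bounds hold for 1 reference shared by all tables, and read counts are not given. Whether such strand differences arose in the cells or in the processing was not tested.

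**Figure D4:**
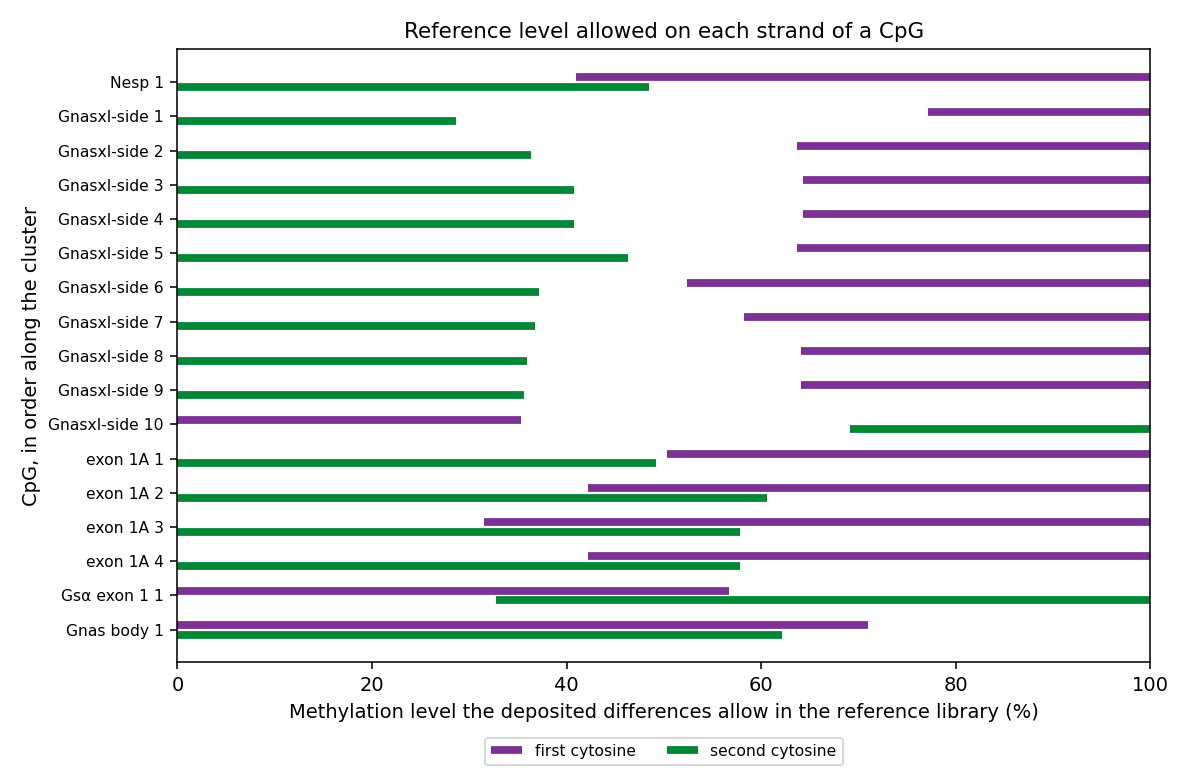
Range of methylation levels (%) that the deposited differences allow in the reference library at the first and the second cytosine of each CpG with each listed in some library, in order along the cluster. The bars of the 2 strands are apart at all 10 Gnasxl-side CpGs and at the first exon 1A CpG, and overlap at the other 6.

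At exon 1A, the paternal first exon whose region is methylated in the egg, the listed positions lay beyond the promoter window printed above, the nearest 82 bp after the second start, and 1 stood upstream. In iPSC 2 all 6 were hypo and none had an opposite neighbour within 50 bp. Position 174327122, upstream and also inside Gm30189, had −100 points, and 174327876 had −30.4 points. The 4 others, between 174327956 and 174327988, had −60.7 to −55.7 points, with −57.4 at the first and −60.7 at the last. No other library listed any of the 6. Without a listing in iPSC 1 the iPSC lines cannot be called alike at this exon. Position 174327850 had −41.2 points in gPSC 1 and −50.3 points in GSC, and its partner 174327851 had 50.8 points in gPSC 2. GSC also listed 3 CpGs on both strands between 174327908 and 174327929, with −42.2 to −31.6 points at the first cytosines and 39.4 to 42.2 points at the second. In iPSC 1 no position of this cluster was listed.

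At Gsα exon 1, the start of the transcript for the G protein subunit itself, the nearest listed position was 401 bp after the start, and none lay in the promoter window. The first cytosine of that CpG (174330407) had 41.4 points in gPSC 1, 29.7 in gPSC 2 and 43.4 in GSC. The second (174330408) had −32.7 points in iPSC 2, −32.7 in gPSC 1 and −31.2 in GSC. Of the other 3 positions, 174330822 had 70.8 points in gPSC 2 alone, and GSC alone had 48.0 points at 174330845 and −38.9 points at 174330620. These 3 lay in an intron or promoter by the deposited feature column, and iPSC 1 had no listing in this cluster.

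The Gnas body was the stretch with listings of a single direction. Position 174337544, in an intron 53.2 kb from the Nesp start, was hyper in all 5 libraries. It was higher than the reference by 53.8 and 55.7 points in the iPSC lines 1 and 2, by 68.4 and 57.2 points in the gPSC lines 1 and 2, and by 84.4 points in GSC. The means were 54.8 ± 1.33 points in iPSC and 62.8 ± 7.92 points in gPSC (SD, n = 2 each). The reference had at most 15.6% methylation there. Each line stood below GSC, with line minus GSC differences of −30.6 and −28.7 points in iPSC 1 and iPSC 2 and of −16.0 and −27.2 points in gPSC 1 and gPSC 2. GSC is 1 library, so this order has no test.

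The other 5 positions of the body cluster were listed in gPSC 2, and 3 of them in iPSC 1 as well. At the CpG of 174337664 and 174337665 the strands moved the same way, with 29.0 and 36.9 points in iPSC 1 and 27.1 and 37.9 points in gPSC 2. These are the 2 of 37 pairs with the same direction. Position 174337711 was higher by 57.3 points in iPSC 1 and by 61.0 points in gPSC 2. The remaining 174337555 and 174337576 had 27.1 and 30.9 points in gPSC 2 alone. The pair of libraries with these listings comes from different kinds of line, and the other line of each kind listed none of the 5.

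Among the isolated positions, 174321920 lies in an intron of Gnas and inside Gm30189, 37.6 kb from the Nesp start. It was higher by 71.7 points in iPSC 1, 83.9 in gPSC 1 and 62.9 in gPSC 2, and by 96.6 points in GSC, and it was not listed in iPSC 2. The reference had at most 3.45% methylation there, and the 3 listed lines stood below GSC, with line minus GSC differences of −24.9 points in iPSC 1, −12.6 in gPSC 1 and −33.7 in gPSC 2. Position 174345375, in the last part of Gnas, was hyper in all 4 lines and not listed in GSC. Its differences were 76.8 points (iPSC 1), 58.3 points (iPSC 2), 79.6 points (gPSC 1) and 72.3 points (gPSC 2), with means of 67.6 ± 13.1 points in iPSC and 75.9 ± 5.15 points in gPSC (SD, n = 2 each), and the kinds overlap. The 4 other isolated positions were 174287742 (26.6 points) and 174291155 (100 points) in GSC, 174343084 (100 points) in gPSC 1, and 174351955, beyond the end of Gnas, with 83.3 points in iPSC 2 and in GSC. At the 2 positions of 100 points the reference had no methylated read.

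**Figure D5:**
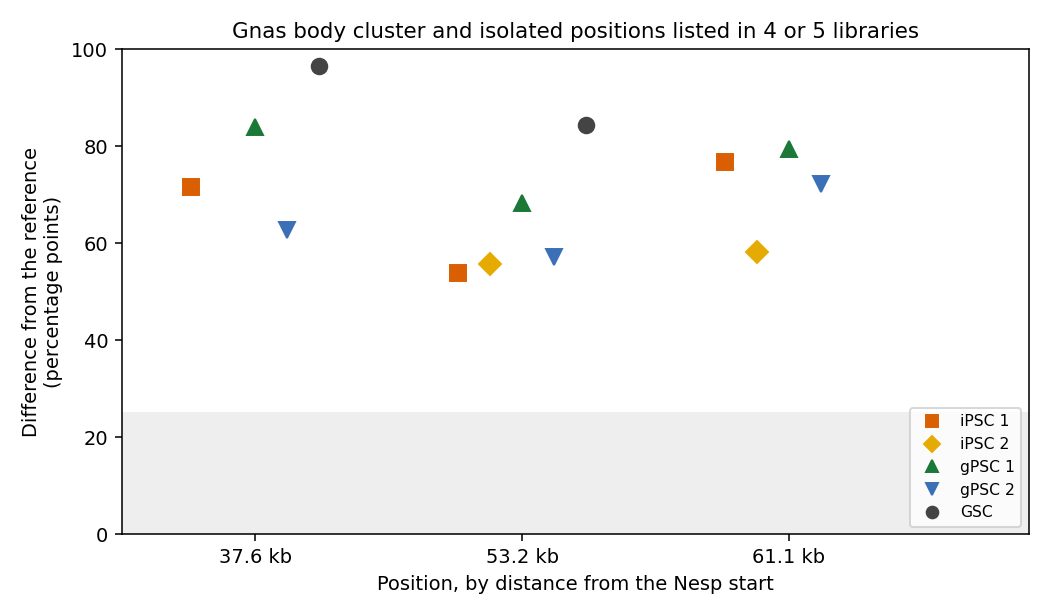
Difference from the reference (percentage points) at 1 position of the Gnas body cluster (53.2 kb) and 2 isolated positions (37.6 and 61.1 kb), those of these kinds listed in 4 or 5 libraries, by distance from the Nesp start, 1 point for each library that lists the position; the grey band is the range under 25 points that is not listed. GSC is the highest point at 37.6 and 53.2 kb and has no point at 61.1 kb, where all 4 lines lie between 58.3 and 79.6 points.

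The iPSC lines, reprogrammed by factors, were compared with the gPSC lines, which are known to arise in culture without them. Hypo positions of the interval numbered 11 and 22 in iPSC and 14 and 2 in gPSC, means of 16.5 ± 7.78 and 8 ± 8.49 (SD, n = 2 each). The difference of 8.5 had p = 0.667 by exact permutation of the 4 lines between kinds (two-sided), whose smallest possible p is 0.33. It was 14 without iPSC 1, 3 without iPSC 2, 14.5 without gPSC 1 and 2.5 without gPSC 2. Hyper positions numbered 14 and 16 in iPSC and 18 and 13 in gPSC, a difference of −0.5 (exact permutation test, two-sided, p = 1), and the sign turned when iPSC 1 was left out (0.5) or gPSC 1 was (2). Over the 4 positions listed in all 4 lines, 174299947, 174300470, 174337544 and 174345375, the mean difference was −6.06 and −6.37 points in iPSC and −1.86 and −6.96 points in gPSC. The first 2 were hypo and the last 2 hyper in every line, so opposite signs cancel and the mean describes no position. Position 174299947 had the same value in every line and adds nothing to the contrast. The difference between kinds, −1.80 points, had p = 1 in the same exact permutation test, and it was 0.747 points without gPSC 1. These counts depended on the listings kept. With differences of at least 50 points, hypo positions numbered 11 and 11 in iPSC and 4 and 2 in gPSC, a difference of 8 (exact permutation p = 0.33). Without positions within 50 bp of an opposite one, hyper positions numbered 6 and 3 in iPSC and 8 and 12 in gPSC, a difference of −5.5 (exact permutation p = 0.33). Under both settings the p is the smallest possible, and the counts were not set beside those of all listed positions. Of the 11 hypo positions of iPSC 1 at 50 points or more, 8 are first cytosines of the mirrored run above. Neither gain nor loss of methylation can be read from these. At the 2 positions left in all 4 lines without those within 50 bp of an opposite one, the mean difference between kinds was −8.24 points (exact permutation p = 0.667). Comparisons of 2 with 2 lines cannot pass a threshold of 0.05.

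Other imprinted loci were looked up in the same way, in windows of 5000 bp to each side of every annotated start, for 15 of 19 listed loci with a start in the RefSeq promoter table. They held 250 listings, of which 83 (33.2%) were hypo, where 12.8 to 21.8% of all listed positions were hypo in the 5 libraries. Without positions within 50 bp of an opposite one, 18 hypo listings were left at maternally and 7 at paternally methylated loci. The share after this removal was not worked out, so no excess of hypo listings can be read from the 33.2%. Of 57 pairs of positions 1 bp apart, counted in each library, 52 were opposite (91.2%), against 77.3% of such pairs over the series. Most of the 52 lay at Grb10 and Zdbf2, so the share is not general to the loci. At Nnat 0 of 3 pairs and at Mest 0 of 1 were opposite, while at Plagl1, Zrsr1, Inpp5f and Mcts2 all were. Grb10, a growth factor receptor adaptor, had 38 hypo of 84 listings and 34 of 35 pairs opposite, and GSC alone had 44 of its listings. Zdbf2 had 17 hypo of 26 listings and 11 of 11 pairs opposite, with 20 listings in iPSC 1. Only 9 hyper listings served those 11 opposite pairs, so some positions fell in 2 pairs. Plagl1, a zinc finger regulator of the cell cycle, had 15 hypo of 18 listings, all in the gPSC lines, 13 in gPSC 1 and 5 in gPSC 2, and 3 of 3 pairs opposite. Zrsr1, encoding a splicing factor relative, had 4 hyper and 2 hypo listings, and Mest, a hydrolase family member, 5 hyper and 2 hypo. Hyper listings also outnumbered hypo ones at Nnat, a neuronal proteolipid (25 of 25 hyper), Nap1l5 (13 of 13), Meg3, a long non-coding RNA of the maternal copy (27 of 28), and Inpp5f, a phosphoinositide phosphatase (32 of 36). Most listed positions of the series were hyper too, with 12.8 to 21.8% hypo. A majority of hyper listings is thus no result about these loci. Peg3, Snrpn and Kcnq1ot1 had no listed position in any library. Loci differ in how many CpGs the assay reads, which is not known here.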

How the data were processed

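Per the labels' protocols, a commercial provider prepared the reduced representation bisulfite libraries of 6 mouse lines. Builds GRCm38 and mm10 and the tools methylKit, GATK, Bowtie2 and Bismark appear in the submitters' processing notes, without roles or versions. The authors deposited, for 5 libraries, 1 table of hyper and 1 of hypo positions, giving for each position its p-value, its q-value and a score, the signed methylation difference in percentage points. Coverage minimums and strand handling were not given in the sources used here. Tested on the tables, the largest q was 0.01 and the smallest absolute difference 25 points, so they hold called positions only.

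Members and lists were chosen with earlier results of these data known. Positions were grouped into clusters with gaps of at most 1000 bp. Named are up to 4 positions of each cluster listed in the most libraries, ties going to the largest mean absolute difference, and the position with the largest difference of each library. Other positions were named after their values were seen. CpG pairs are listed positions 1 bp apart, in the same library for opposite directions and in any library for the bounds, without a check of their letters. The 8-CpG run is the longest with gaps of at most 50 bp. Exact permutation tests compared 2 against 2 lines. Starts came from RefSeq (GRCm38.p6), matched for 15 of 19 other imprinted loci. Scripts used Python 3.11.15 with pandas 2.3.3 and were tested on simulated data. No replicate exists for GSC. The lines are independent per the series' design. The alternatives were stricter difference and q thresholds, removal of positions near an opposite one, merged neighbours, other cluster gaps and windows, and leaving out each line.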

Additional observations from a re-analysis of the deposited data

How the results depend on the processing

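The counts of listed positions depended on the thresholds and on positions near an opposite one. With differences of at least 50 points, hypo positions numbered 11 in iPSC 2, 4 in gPSC 1 and 4 in GSC, and hyper positions 7 in iPSC 2, 9 in gPSC 1, 8 in gPSC 2 and 7 in GSC. Cluster means here are averages of the library means. At Gsα exon 1 only 174330822 in gPSC 2 was left, at 70.8 points, so this value is no cluster mean. Without the threshold the average over 4 libraries was 6.81 points. The iPSC minus gPSC difference in hyper positions turned to 1. Hypo listings of the other imprinted windows fell to 10 maternal and 2 paternal, against 64 and 19. With q of at most 0.001, hypo positions were 14 in iPSC 2 and 1 in gPSC 2, hyper positions 9 in GSC, the difference in hyper positions 2 (exact permutation p = 0.33, the smallest it can give), and the imprinted hypo listings 35 and 4. Without positions 1 bp from an opposite one, hypo positions were 3, 11, 4 and 1 in iPSC 1, iPSC 2, gPSC 1 and gPSC 2 and 9 in GSC, and hyper positions 6, 5 and 8 in iPSC 1, iPSC 2 and gPSC 1. The Gnasxl-side mean was then −37.1 points, against −6.01, the difference in hyper positions −4.5 (exact permutation p = 0.33), the difference at shared positions −5.49 points, and the imprinted hypo listings 30 and 10. Within 50 bp, hypo positions were 2, 9, 2 and 1 in the lines and 4 in GSC, hyper positions 6, 3 and 8 in iPSC 1, iPSC 2 and gPSC 1 and 8 in GSC, the Gnasxl-side mean −18.2 points, and the imprinted hypo listings 18 and 7. Leaving out 1 line moved the iPSC minus gPSC difference between 2.5 and 14.5 hypo positions, between −3 and 2 hyper positions, and between −4.35 and 0.747 points at shared positions. Line numbers name independent lines and do not pair them. The deviations of same-numbered lines correlated at 0.116 over the 38872 positions listed in all 4 lines. Pairing lines by number as a replicate block cannot change a difference of means, so 8.5, −0.5 and −1.80 stayed by construction. The exact sign-flip p was 1 for each, where the smallest possible is 0.5. Merged neighbours, other gaps and a narrower imprint window moved no reported count by over 1.5 times and no cluster mean by more than the SD over libraries. Depth is unknown, and GSC and the reference are 1 library each.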
